A study of Mus musculus with 22 samples.

Results

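CXCL9, CXCL10 and CXCL11 are the chemokines that bind the receptor CXCR3, and their transcripts were followed in BMDM, bone marrow-derived macrophages that were cultured from mouse marrow with the growth factor M-CSF. A probe was counted as a member if the RefSeq accession that the scanner files give for it maps to Cxcl9, Cxcl10 or Cxcl11. This selected 3 probes among 55681 non-control probes of the array, and all 3 were among the 28103 probes that were tested. They read 2 of the 3 genes, among 22383 genes tested. Cxcl9 (NM_008599) was read by 2 probes, A_51_P461665, called the leading probe here because its mean signal over all arrays was the higher, and A_55_P1977038, called the second probe. Cxcl10 (NM_021274) was read by 1 probe, A_55_P2016462. The accession under which the RefSeq table lists Cxcl11 (NR_038116, a transcribed pseudogene) was carried by 0 probes, so Cxcl11 was not analysed here. A further 2 probes carry the accession NM_019494, which the table does not name. They were not assigned to a gene, and the array may read Cxcl11 through probes that are unnamed here.

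The 22 arrays came from C57BL/6 mice labelled as male and aged 10 to 14 weeks. The mice were wild type (wt), deficient for the protein kinase MK2 (MK2-/-), or deficient for MK2 and its relative MK3 (MK2/3-/-). BMDM were kept for 360 min in medium or in medium with 100 ng/ml of LPS, the lipopolysaccharide that coats Gram-negative bacteria. There were 3 LPS-treated and 4 medium-treated wt arrays, 4 and 4 MK2-/- arrays, and 4 and 3 MK2/3-/- arrays. MK2/3-/- BMDM lack MK2 as well as MK3, and BMDM lacking MK3 alone were not analysed here. The labels do not say which LPS and medium arrays share an animal, so p-values measure the spread between arrays.

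All arrays of a genotype lay on 1 of 3 slides, and the wt slide was scanned on another day than the other 2, so in a direct comparison of genotypes the effects of genotype and slide cannot be told apart. Within a genotype, both treatments were on the same slide. The Mapkapk2 probe, which reads the transcript of MK2, ranged from 10.77 to 12.39 (log2 signal) in medium-treated wt BMDM and from 8.34 to 9.01 in medium-treated BMDM of both knockouts, and from 14.28 to 15.33 and 10.87 to 11.95 after LPS. The Mapkapk3 probe ranged from 7.66 to 8.55 in LPS-treated MK2/3-/- BMDM and from 11.92 to 12.57 in the other LPS-treated arrays. In medium the gap was smaller, with 10.94 to 11.4 in MK2/3-/- BMDM and 12.395 to 13.42 in the other medium-treated arrays. On replicate 3 of both MK2-/- groups the Y-linked Ddx3y was at 1.99 and 2.01 against 10.09 to 11.26 on the other 20 arrays, and Xist was at 7.66 and 7.78 against at most 5.79, which goes against the label male. All 6 macrophage markers that could be read (of 7, among them Adgre1 and Csf1r) were well above background on every array.

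CXCL9 and CXCL10 are secreted proteins that attract activated T cells and natural killer (NK) cells, which carry CXCR3. Both are textbook interferon-induced genes: interferon gamma acts on gamma-activated sites, and type I interferons act mainly on interferon-stimulated response elements. In macrophages LPS signals through TLR4, which leads to NF-kB activity and to the secretion of interferon beta, and CXCL9 is known as the ligand that depends most on interferon gamma. CXCL11 is known to be non-functional in C57BL/6 mice. MK2 and MK3 are kinases activated by p38 MAP kinase, and MK2 is known for its control of the stability and translation of cytokine transcripts.

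Cxcl9 and Cxcl10 lie close together on the minus strand of chromosome 5, in a cluster with Cxcl11 within which the annotated start of Art3 lies. Their sequences upstream of the transcription start are shown because response elements for interferon and NF-kB can lie there and the 2 genes differed in what follows. They are the 250 bases before the start, 5' to 3' on the strand of the gene, from RefSeq, build GRCm38.p6, at chr5:92328080-92328329 for Cxcl9 and chr5:92348890-92349139 for Cxcl10. Both entries were found, and none for Cxcl11. Capitals mark matches to any of 3 motifs searched on both strands: the core of the interferon-stimulated response element (GAAANNGAAA), the gamma-activated site (TTCNNNGAA) and the kappa-B site.
Cxcl9: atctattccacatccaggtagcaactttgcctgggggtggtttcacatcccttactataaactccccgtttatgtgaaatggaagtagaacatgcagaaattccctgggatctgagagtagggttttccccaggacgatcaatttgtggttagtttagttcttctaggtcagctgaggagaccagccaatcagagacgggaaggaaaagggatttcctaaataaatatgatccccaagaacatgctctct
Cxcl10: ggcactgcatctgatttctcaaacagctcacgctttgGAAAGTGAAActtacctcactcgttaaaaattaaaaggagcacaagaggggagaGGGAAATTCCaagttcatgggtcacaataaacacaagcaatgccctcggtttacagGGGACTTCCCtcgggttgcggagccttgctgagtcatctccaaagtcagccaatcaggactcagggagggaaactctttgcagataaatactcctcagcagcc
The Cxcl10 window held 1 response element core, GAAAGTGAAA, which ran from 213 to 204 bases before the start, and 2 kappa-B matches, GGGAAATTCC from 159 to 150 and GGGACTTCCC from 103 to 94 bases before the start. The Cxcl9 window held no match to the 3 motifs, which says only that these letters are not in these bases. Over 32851 promoter windows of the same length, 2.98% held the response element core, 7.02% the gamma-activated site and 3.9% the kappa-B site.

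LPS raised both chemokines in all genotypes. Cxcl9 rose by 94.2-fold or more on each probe, and Cxcl10 rose to among the brightest probes of the array. All 3 probes were called higher in each genotype by limma, at an adjusted p below 0.05 over all probes tested. Of all 28103 probes, 42% were called in wt, 45.4% in MK2-/- and 48.6% in MK2/3-/- BMDM, in either direction.

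On the leading Cxcl9 probe, medium-treated wt arrays gave log2 signals of 6.25, 5.76, 8.05 and 11.15, and LPS-treated wt arrays 14.67, 15.43 and 14.86. Replicate 4 of medium-treated wt was the highest of all medium arrays on each of the 3 probes. The rise in wt was 7.18 (SE 0.86, adjusted p 2.03e-06), or 146-fold, and it was 8.30 without that replicate. Medium-treated MK2-/- arrays gave 4.64, 6.86, 4.98 and 4.76, the lowest of which was not well above background, and LPS-treated ones 14.16, 15.29, 15.28 and 15.52. The rise was 9.75 (SE 0.80, adjusted p 8.07e-09). Medium-treated MK2/3-/- arrays gave 6.32, 5.58 and 5.29, and LPS-treated ones 17.19, 17.39, 16.78 and 16.94, a rise of 11.34 (SE 0.86, adjusted p 3.55e-09), or 2597-fold. Among the 28103 probes, this probe held place 15 by size of the LPS effect in wt, place 12 in MK2-/- and place 4 in MK2/3-/- BMDM.

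The second Cxcl9 probe gave 6.59, 6.95, 7.19 and 10.18 in medium-treated and 13.71, 14.83 and 14.32 in LPS-treated wt BMDM. The MK2-/- arrays gave 5.985, 6.18, 6.09 and 6.25 in medium and 13.68, 14.65, 14.43 and 15.01 after LPS. The MK2/3-/- arrays gave 6.83, 6.23 and 6.31 in medium and 16.88, 17.17, 16.38 and 16.80 after LPS. In every genotype all LPS arrays lay above all medium arrays on this probe, as on the leading one and on that of Cxcl10; the same was so for 21.6% of all probes in wt, 17.4% in MK2-/- and 21.3% in MK2/3-/- BMDM. The rise in wt was 6.56 (SE 0.58, adjusted p 4.49e-08), and 7.38 without replicate 4 of medium-treated wt. It was 8.32 (SE 0.54, adjusted p 3.98e-10) in MK2-/- and 10.35 (SE 0.58) in MK2/3-/- BMDM, the latter with an adjusted p of 1.1e-10.

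Cxcl10 gave 11.31, 11.74, 12.78 and 15.03 in medium-treated and 18.05, 18.35 and 18.33 in LPS-treated wt BMDM. The MK2-/- arrays gave 11.91, 11.19, 10.46 and 9.70 in medium and 18.14, 18.01, 18.18 and 18.21 after LPS. The MK2/3-/- arrays gave 12.27, 11.03 and 10.09 in medium and 18.17, 18.11, 18.34 and 18.22 after LPS. The LPS arrays of all genotypes were thus within 18.01 to 18.35, while the medium arrays spread from 9.70 to 15.03. The rises were 5.53 (SE 0.66, adjusted p 1.88e-06), 7.32 (SE 0.61, adjusted p 1.01e-08) and 7.08 (SE 0.66, adjusted p 4.56e-08), or 46.2-fold, 160-fold and 136-fold. Without replicate 4 of medium-treated wt, the rise of Cxcl10 in wt was 6.30. After LPS only 18 to 54 probes of an array were brighter than the Cxcl10 probe. No spot was marked as saturated; whether a probe this bright still responds in proportion was not tested.

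**Figure D1:**
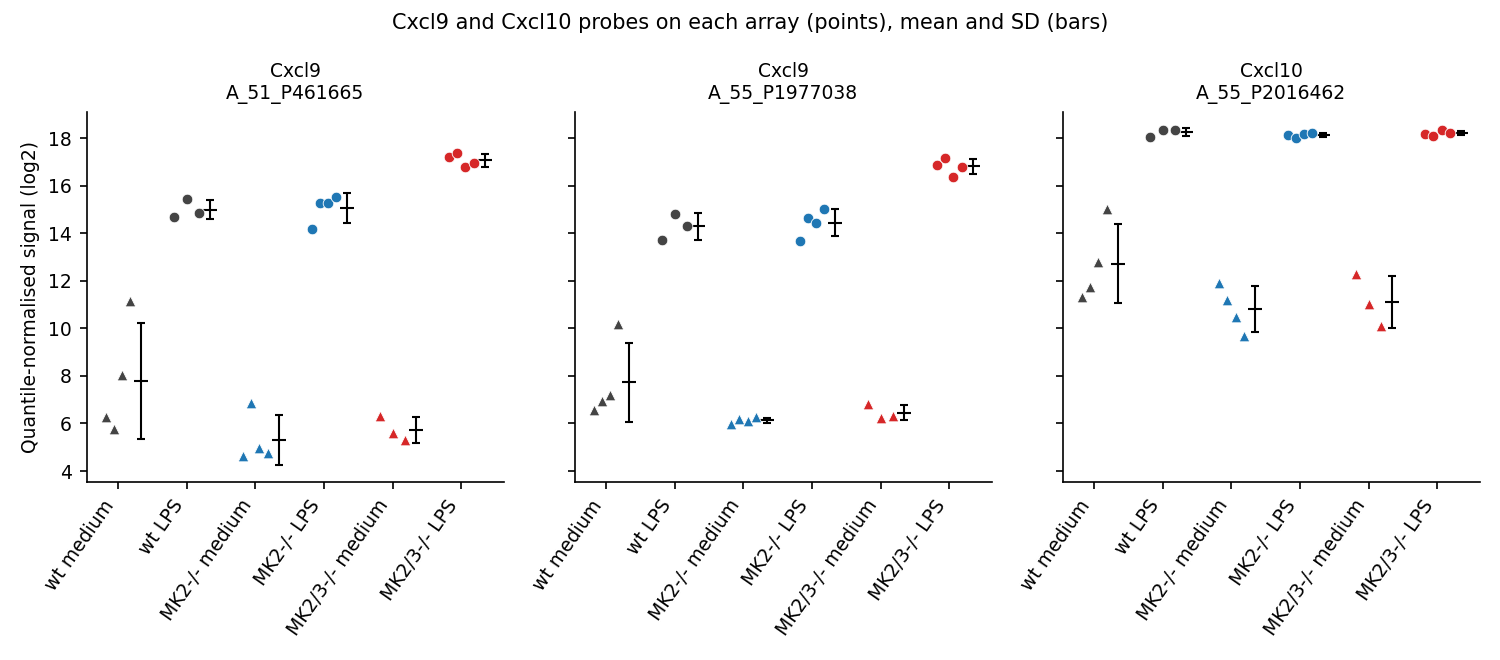
Quantile-normalised log2 signal (vertical axis) of both Cxcl9 probes and the Cxcl10 probe in the 6 groups, with 1 point per array (triangles medium, circles LPS) and the mean and SD beside them. After LPS the MK2/3-/- arrays lie between 16.78 and 17.39 on the leading Cxcl9 probe, above all wt and MK2-/- arrays, while Cxcl10 is between 18.01 and 18.35 in all genotypes.

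LPS-treated BMDM were then compared between genotypes, to ask whether the loss of MK2, or of MK2 and MK3, changes what LPS induces. Cxcl9 was higher in MK2/3-/- BMDM than in wt and MK2-/- BMDM on the second probe, by more than 5-fold, and the leading probe differed by a like amount without passing the threshold. Cxcl10 and all probes in MK2-/- against wt gave small differences that were not called.

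Against wt BMDM, 1 of 3 probes was called in MK2/3-/- BMDM, where 23.7% of all probes were. The second Cxcl9 probe had means of 16.81 ± 0.33 (SD, n = 4) and 14.28 ± 0.56 (SD, n = 3), a difference of 2.52 (95% interval 1.31 to 3.74, limma adjusted p 0.00444), or 5.75-fold. The leading probe had means of 17.07 ± 0.27 (SD, n = 4) and 14.99 ± 0.39 (SD, n = 3) and differed by 2.09 (95% interval 0.28 to 3.89, limma adjusted p 0.0869). On both probes all 4 MK2/3-/- arrays lay above all 3 wt arrays, as they did on 11.6% of all probes. The limma fit takes 1 spread per probe from all 22 arrays, and the medium-treated wt arrays spread widely on the leading probe (SD 2.44, n = 4). When only the compared groups were fitted, the leading probe was called (adjusted p 0.0204), and it was also called without replicate 4 of medium-treated wt (adjusted p 0.0107). By the methods' t-test with Benjamini-Hochberg adjustment over all probes, an alternative to limma, the leading probe was called (adjusted p 0.0475) and the second was not (adjusted p 0.0522).

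Between the knockouts, 1 of 3 probes was called after LPS, where 13.4% of all probes were. The second Cxcl9 probe differed by 2.37 (95% interval 1.24 to 3.49, adjusted p 0.00673), with 14.44 ± 0.56 (SD, n = 4) in MK2-/- BMDM. The leading probe differed by 2.01 (95% interval 0.34 to 3.69, adjusted p 0.102), and on both probes all MK2/3-/- arrays lay above all MK2-/- arrays, as they did on 8.33% of all probes.

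In MK2-/- against wt BMDM, limma called 0 of 3 probes, where 11.6% of all probes were called. An unadjusted p under 0.05 was reached by 0 of 3 in limma (29.5% of all probes) and by 0 of 3 in the methods' t-test (26.2% of all probes). The leading Cxcl9 probe differed by 0.07 (95% interval -1.73 to 1.88) and the second by 0.16 (-1.06 to 1.37), and the arrays overlapped. Cxcl10 differed by -0.11 (95% interval -1.49 to 1.27) in MK2-/- against wt, by -0.03 (-1.41 to 1.35) in MK2/3-/- against wt and by 0.08 (-1.20 to 1.36) between the knockouts. These intervals hold differences of more than 2-fold in either direction.

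Part of the NK cell markers were higher where Cxcl9 was higher after LPS. The summed signal of the 4 NK cell genes ranged from 1220 to 1870 in LPS-treated MK2/3-/- BMDM, from 758 to 910 in wt and from 298 to 862 in MK2-/- BMDM. Bright genes dominate this sum of unlogged signals. In LPS-treated MK2/3-/- BMDM the log2 means were 9.99 for Prf1, 8.59 for Gzma, 4.77 for Klrb1c and 2.49 for Ncr1. Comparing MK2/3-/- with wt, Prf1 (0.84, adjusted p 0.00474) and Gzma (0.86, adjusted p 0.00665) were called higher and Klrb1c (0.58) and Ncr1 (-1.03) were not called. In medium the NK cell sum was also higher in MK2/3-/- (773 to 897) than in wt BMDM (507 to 632), where the means of Cxcl9 were lower. Ncr1, a defining NK cell receptor gene, was not well above background on any LPS-treated wt or MK2/3-/- array. The summed signal of 5 T cell genes was 6610 to 11900 in MK2/3-/-, 5440 to 5890 in wt and 5430 to 8700 in MK2-/- BMDM after LPS. In medium this sum was likewise higher in MK2/3-/- (6700 to 9270) than in wt BMDM (3620 to 4500). Cd4 and Cd3e dominate it, with log2 means of 12.75 and 11.51 in LPS-treated MK2/3-/- BMDM. Those of Cd8a, Cd3d and Cd3g were 6.2, 5.01 and 2. Of 4 of the T cell genes that were tested, 1 was called higher in MK2/3-/- than in wt BMDM after LPS, Cd4 (1.06). The mean of Cd4 was also higher in medium (12.66 against 11.36). Cd3g was not well above background on any LPS-treated wt or MK2/3-/- array. Of 4 genes tested in each further list, limma called 1 lower for neutrophils (S100a8, -3.11), 1 lower for fibroblasts and endothelium (Cdh5, -1.34) and 1 higher for B cells. It called 0 for dendritic cells and 0 of 6 for macrophages. Of all genes, 9.63% were called higher and 14% lower in LPS-treated MK2/3-/- against wt BMDM. Values above 0 were found for 2 of 4 neutrophil genes and 1 of 4 fibroblast and endothelial genes. In wt BMDM the mean of S100a8 itself went from 8.73 in medium to 12.45 after LPS. The means of Col1a1 (9.20 against 12.55 in wt) and Col1a2 (11.33 against 14.06) differed more than that of Cdh5 without being called. In these bulk samples a larger number of such cells and more RNA per cell cannot be told apart, and the part of these cells in the level of Cxcl9 was not tested.

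**Figure D2:**
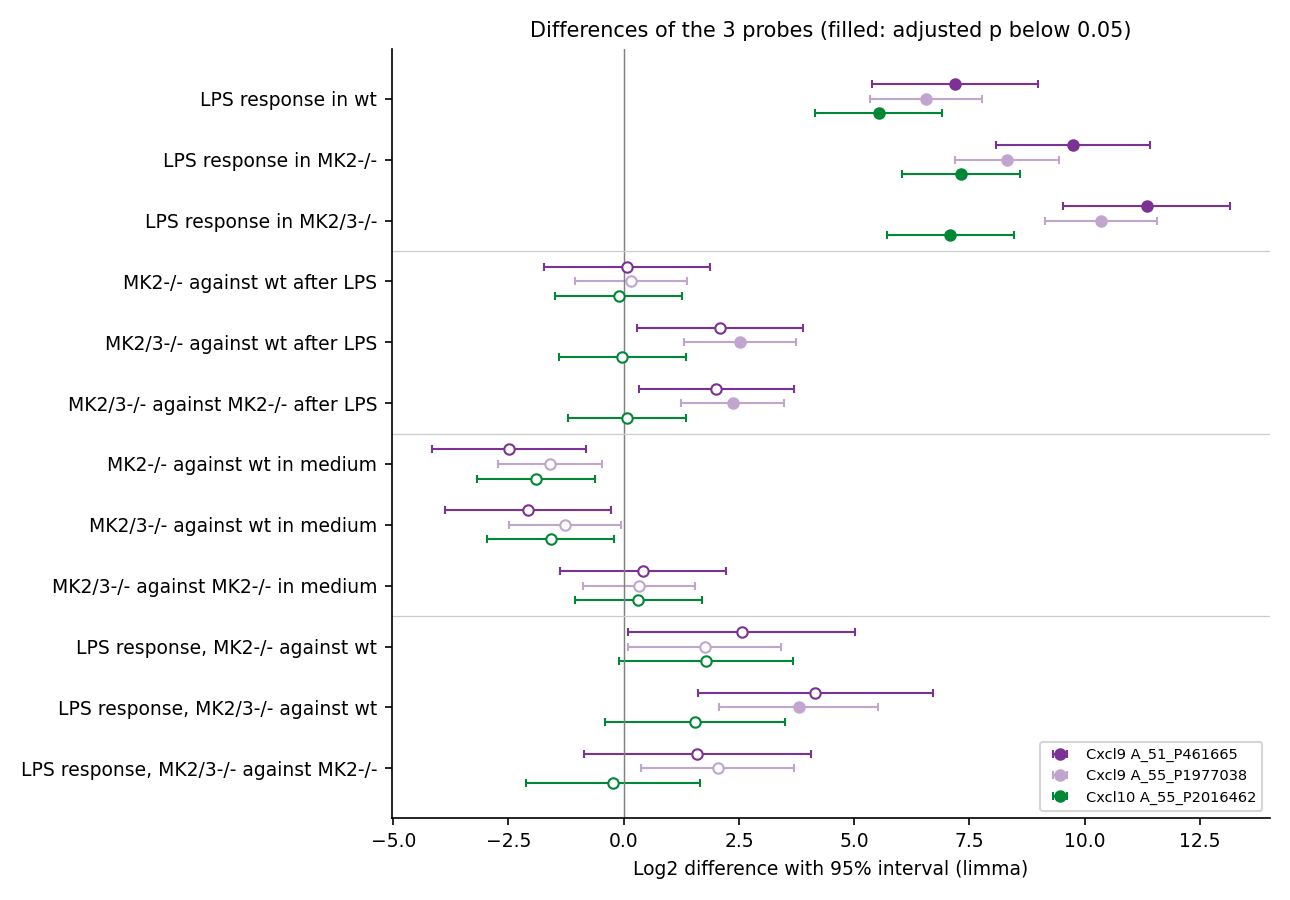
Log2 differences (horizontal axis) of both Cxcl9 probes and the Cxcl10 probe in the 12 comparisons, with 95% intervals from limma. Filled points have an adjusted p below 0.05: all 9 LPS responses, and the second Cxcl9 probe in MK2/3-/- against wt after LPS, in MK2/3-/- against MK2-/- after LPS and in the LPS response of MK2/3-/- against wt.

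In medium, the means of all 3 probes were lower in both knockouts than in wt, but limma called 0 of 3 in each of the comparisons. The share of all probes called was 7.9% in MK2-/- against wt, 1.92% in MK2/3-/- against wt and 2.68% in MK2/3-/- against MK2-/- BMDM. In MK2-/- against wt, the differences were -2.49 (adjusted p 0.0602) and -1.60 (adjusted p 0.072) for Cxcl9 and -1.90 (adjusted p 0.0608) for Cxcl10. All 3 had an unadjusted p under 0.05 in limma, as did 25.4% of all probes, and 0 of 3 in the methods' t-test (24.5% of all probes). The second Cxcl9 probe did not overlap between these groups, since the MK2-/- arrays lay within 5.985 to 6.25 and the lowest wt array was at 6.59. Of all probes, 8.13% were below wt on all MK2-/- arrays in this way. The differences of MK2/3-/- against wt were -2.07, -1.27 and -1.58 with adjusted p-values of 0.22 to 0.27, and again 3 of 3 unadjusted p-values were under 0.05 in limma (17% of all probes) and 0 of 3 in the methods' t-test (22.6% of all probes). Replicate 4 of medium-treated wt carried much of this: without it the differences in MK2-/- against wt were -1.38, -0.78 and -1.13, and those in MK2/3-/- against wt were -0.96, -0.45 and -0.81. Between the knockouts the differences were 0.42, 0.33 and 0.32. An unadjusted p under 0.05 was reached by 0 of 3 in limma (14.9% of all probes) and by 0 of 3 in the methods' t-test (15.7% of all probes).

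Whether the LPS response itself differed by genotype was tested as the interaction of genotype and treatment, in which an additive effect of the slide cancels. The response of Cxcl9 was larger in MK2/3-/- than in wt BMDM on the second probe. For MK2/3-/- against wt, 1 of 3 probes was called, where 0.979% of all probes were. The second probe had a difference of 3.79 (95% interval 2.08 to 5.51, adjusted p 0.0355), which stood at place 14 by size among 28103 probes. The leading probe had the larger difference, 4.16 (95% interval 1.60 to 6.71, place 7), with an adjusted p of 0.115. Cxcl10 differed by 1.55 (95% interval -0.40 to 3.50, adjusted p 0.577).

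The call of the second Cxcl9 probe held only narrowly. Leaving out single arrays kept it in 14 of 22 fits (adjusted p 0.00912 to 0.0961), and it was lost without replicates 1 or 3 of LPS-treated wt, replicate 3 of medium-treated wt, replicates 1 or 2 of LPS-treated MK2/3-/-, or any replicate of medium-treated MK2/3-/- BMDM. It was also lost without both MK2-/- replicate 3 arrays (adjusted p 0.0536), with 75th percentile scaling (0.232), with all non-control probes tested (0.0658) and when only the compared groups were fitted (0.0981). When replicate 4 of medium-treated wt was left out, the value was 2.98 with an adjusted p of 0.00912 on the second probe, 3.04 (0.0975) on the leading probe and 0.78 (0.796) for Cxcl10.

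In MK2-/- against wt, 0% of all probes (0 of 28103) were called by limma, with 2164 at an unadjusted p under 0.05, so no probe of Cxcl9 or Cxcl10 was called either. The differences were 2.57 and 1.76 for Cxcl9, both with an unadjusted p under 0.05, and 1.79 for Cxcl10. In MK2/3-/- against MK2-/-, 0.0676% of all probes were called and 0 of the 3 by limma. The second Cxcl9 probe had 2.04 (unadjusted p 0.0185, adjusted p 0.465), the leading probe 1.59 and Cxcl10 -0.24.

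Since the 2 Cxcl9 probes gave unlike calls, they were set against each other array by array. Probes bind with unlike strength, so a difference of their levels has no meaning by itself and only its change between groups is read. With LPS the leading probe rose more than the second: the difference of leading minus second probe ranged from -1.49 to 0.97 over the medium arrays and from 0.14 to 0.96 over the LPS arrays. Its mean change with LPS was 1.02 on the log2 scale (0.63 in wt, 1.43 in MK2-/- and 0.99 in MK2/3-/-; two-sided exact permutation p 0.00133 over 85750 relabelings within genotype, 0.00266 after Benjamini-Hochberg over 4 tests). In medium the processed signal before normalisation was 23.3 to 4674 units on the leading probe and 63.6 to 2381 units on the second, the highest being replicate 4 of wt on both.

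After LPS the difference was 0.96, 0.60 and 0.54 in wt and 0.31, 0.21, 0.39 and 0.14 in MK2/3-/- BMDM, without overlap, a change of -0.44. The exact permutation p was 0.0571 (two-sided, also after adjustment), which is the smallest that 3 against 4 arrays allow. On either probe alone MK2/3-/- was higher than wt by 4.24-fold or more, so this difference between the probes was small beside it.

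**Figure D3:**
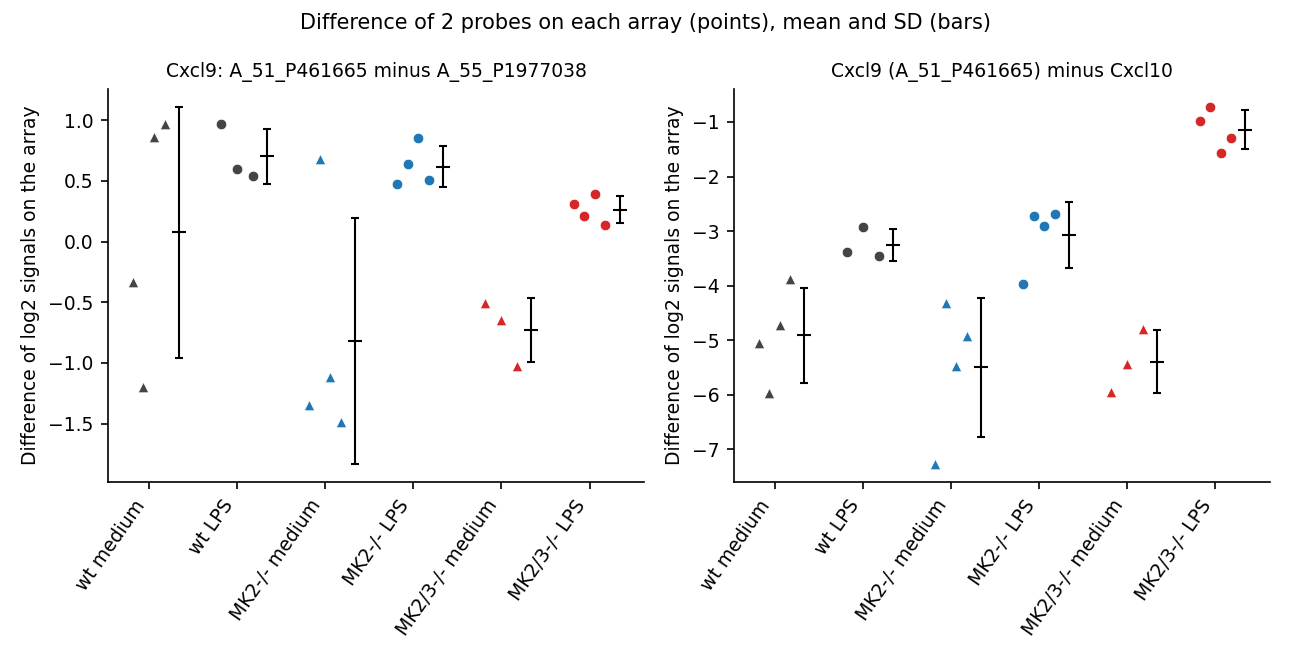
Difference of the log2 signals of 2 probes on the same array (vertical axis) in the 6 groups, with 1 point per array and mean and SD, for the 2 Cxcl9 probes (left) and for Cxcl9 and Cxcl10 (right). The zero of the axis has no meaning. In the right panel the LPS-treated MK2/3-/- arrays lie between -1.56 and -0.72, above all other arrays.

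Cxcl9 and Cxcl10 were compared in the same way, to ask whether both ligands responded by like amounts. The difference of leading Cxcl9 probe minus Cxcl10 probe changed with LPS by 2.78 on average, with 1.65 in wt, 2.43 in MK2-/- and 4.26 in MK2/3-/- (two-sided exact permutation p 2.33e-05 over all genotypes, the smallest possible with 85750 relabelings, 9.33e-05 after adjustment). With the second Cxcl9 probe, added after seeing the data, the change was smaller, 1.77 on average (exact permutation p 0.000257), with 1.03, 1.00 and 3.27 in the 3 genotypes. These are unequal changes of signal between probes of 2 genes, and the Cxcl10 probe was at the top of the range on all LPS arrays, where its response in proportion was not tested. After LPS it was -3.38, -2.92 and -3.47 in wt, -3.98, -2.72, -2.90 and -2.69 in MK2-/-, and -0.98, -0.72, -1.56 and -1.29 in MK2/3-/- BMDM. The MK2/3-/- arrays lay 2.12 above the wt arrays without overlap (two-sided exact permutation p 0.0571, the smallest that this design allows), and no MK2-/- array overlapped them either.

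The genes whose profile over all 22 arrays was nearest to each member were named by the root mean square difference of log2 signals centred per gene. For Cxcl9 they were a transcript that the RefSeq table does not name (NM_008352, 0.93), Gfi1, which encodes a transcriptional repressor (1.04), Cd40, a co-stimulatory receptor (1.04), the chemokine Ccl12 (1.11) and Hdc, the enzyme of histamine synthesis (1.15). For Cxcl10 they were Oasl1 (0.36), Usp18, an inhibitor of type I interferon receptor signalling (0.46), the unnamed NM_010846 (0.49), the antiviral gene Rsad2 (0.50) and the phosphatase gene Dusp2 (0.52). Cxcl9 and Cxcl10 were 1.72 apart: Cxcl10 held place 46 in the list of Cxcl9, and Cxcl9 place 281 in that of Cxcl10. All these genes share the arrays and the LPS treatment.

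A short list held 4 genes of receptors and processing of these ligands. Cxcr3, the gene of the receptor itself, ranged from 8.94 to 11.27 in LPS-treated wt, from 11.45 to 12.06 in MK2-/- and from 11.66 to 12.54 in MK2/3-/- BMDM. It was called higher in MK2/3-/- (1.69, adjusted p 0.00569) than in wt BMDM after LPS, as it was for MK2-/- BMDM (1.32, adjusted p 0.0409, but 0.0586 with 75th percentile scaling), and its rise with LPS was called in both knockouts (1.80 and 1.83) but not in wt (0.39); these responses were not called different (adjusted p 0.567 and 0.281). Ackr1, an atypical receptor that binds many chemokines, was higher by 1.095 in LPS-treated MK2/3-/- than in wt BMDM (adjusted p 0.00569). Its means were also higher without LPS, at 7.60 in MK2/3-/- and 7.52 in MK2-/- against 6.69 in wt BMDM. In MK2/3-/- against wt in medium 0 of the 4 genes were called. After LPS, Ackr3 and Dpp4, whose product trims CXCR3 ligands, were not called in MK2/3-/- against wt BMDM. Dpp4 was well above background on only 0 of 3 wt and 1 of 4 MK2/3-/- arrays after LPS, and Ackr3 on 1 of 3 and 2 of 4. Thus 2 of 4 genes were called higher and 0 lower in this comparison, where 9.63% of all 22383 genes were called higher and 14% lower.

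Of 14 interferon-stimulated genes tested, 14 were called higher with LPS in each genotype. Of all 22383 genes, 18.6% were called higher in wt, 17.6% in MK2-/- and 20.3% in MK2/3-/- BMDM. The median log2 rises of the 14 genes were 5.68, 6.29 and 6.10, where the medians of all genes were -0.04, -0.01 and 0.02. In LPS-treated MK2/3-/- against wt BMDM, 0 of these 14 were called in either direction. Of all genes, 9.63% were called higher and 14% lower there. The 14 genes had values from -0.35 for Rsad2 to 0.58 for Ifit2 and a median of 0.02 (all genes -0.02). Gbp2 (0.36), Gbp5 (0.11) and Nos2 (0.00), which like Cxcl9 are known interferon gamma-induced genes, were among them. The difference of 2.09 to 2.52 of Cxcl9 lay outside this range and that of Cxcl10 within it. Some of these genes were, like Cxcl10, near the top of the range after LPS, where a response in proportion was not tested. Isg15 had means of 18.57 in wt and 18.51 in MK2/3-/- BMDM, and Oasl1 17.78 and 17.99. Others were less bright, such as Oas2 with 14.70 and 14.73.

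Upstream of these genes, Ifnb1, which encodes interferon beta, ranged from 10.79 to 12.89 in LPS-treated wt, from 7.41 to 9.68 in MK2-/- and from 8.45 to 10.70 in MK2/3-/- BMDM. It was called lower in MK2-/- than in wt BMDM (-2.84, adjusted p 0.0214), and its difference of -1.78 in MK2/3-/- against wt was not called (adjusted p 0.0896). Ifng, the gene of interferon gamma, had means of 3.39 in wt, 3.08 in MK2-/- and 3.08 in MK2/3-/- BMDM after LPS and was well above background on 5 of 11 LPS arrays. Irf1, an interferon-induced transcription factor, rose with LPS by 1.89, 1.76 and 2.26 in wt, MK2-/- and MK2/3-/- BMDM (all called). After LPS, Irf1 (0.46) and Socs1, a feedback inhibitor (-0.74), were not called in MK2/3-/- against wt.

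Of all 20 genes of interferon signalling, 2 were called higher and 0 lower in LPS-treated MK2/3-/- against wt BMDM, with a median of -0.18. Of all genes, 9.63% were called higher and 14% lower in this comparison. With 75th percentile scaling 2 of the 20 genes were higher and 3 lower, the last being Ifnar1 (-0.79), Ifngr1 (-0.88) and Irf9 (-0.54). The 2 higher ones were Irf8, a transcription factor of the macrophage lineage (1.55, adjusted p 0.00806), and Ticam1, the TRIF adaptor of TLR4 (0.83, adjusted p 0.00491). Irf8 ranged from 17.05 to 17.70 in MK2/3-/- and from 14.64 to 16.41 in wt BMDM after LPS. No gene of this list was called in the interaction of MK2/3-/- against wt by limma, where 0.156% of all genes were called higher and 0.755% lower.

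**Figure D4:**
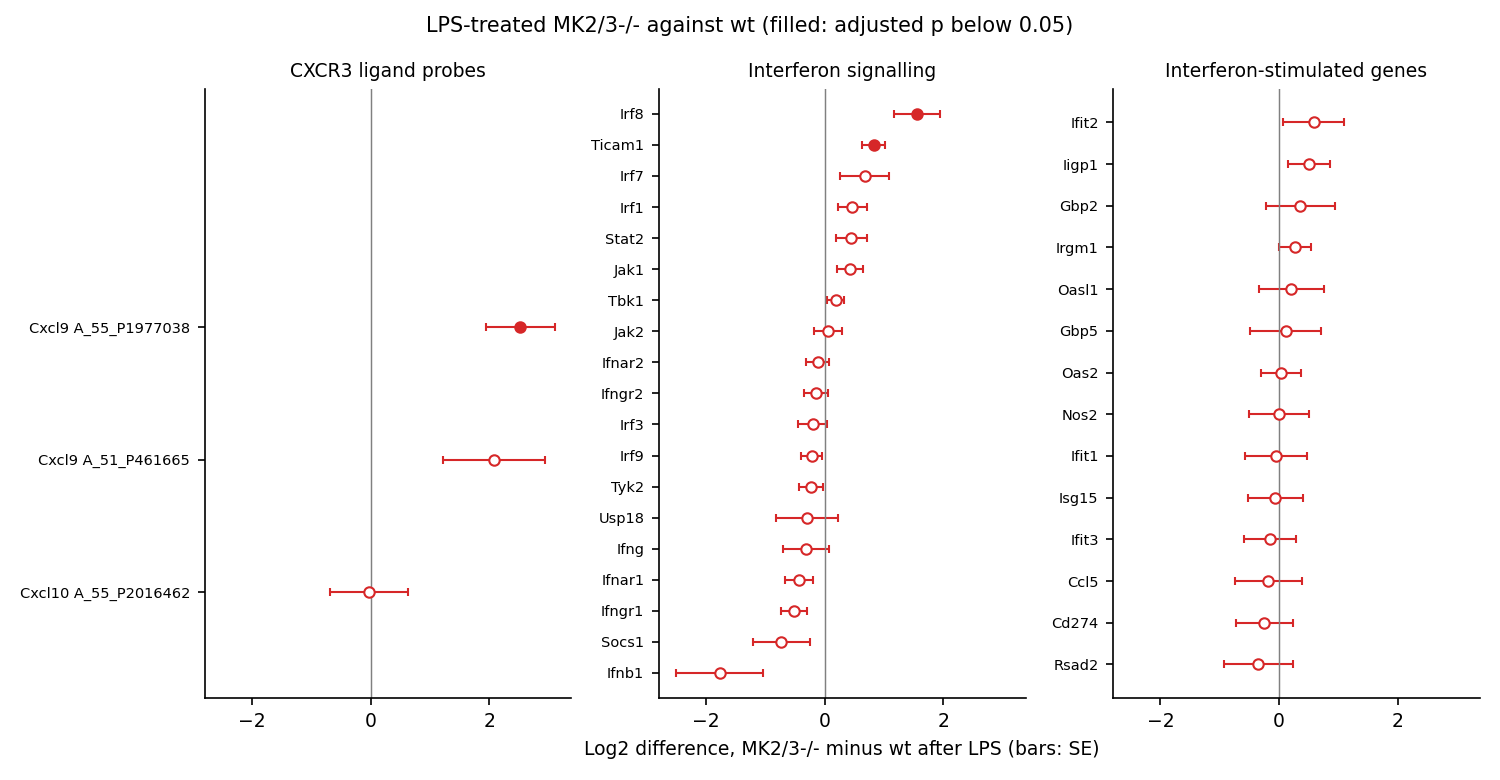
Log2 difference of LPS-treated MK2/3-/- minus wt BMDM (horizontal axis, bars are SE) for the CXCR3 ligand probes, genes of interferon signalling and 14 interferon-stimulated genes. Filled points have an adjusted p below 0.05. Both Cxcl9 probes lie at 2.09 and 2.52, beyond all 14 interferon-stimulated genes, which range from -0.35 to 0.58.

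Of 9 genes of NF-kB and its inhibitors, 8, 9 and 8 were called higher with LPS in wt, MK2-/- and MK2/3-/- BMDM, and 0 in LPS-treated MK2/3-/- against wt (median 0.29). Among 11 other CXC chemokines tested, 4 were called higher and 1 lower with LPS in each genotype. Of all genes, 18.6%, 17.6% and 20.3% were called higher with LPS in these genotypes, in the same order, and 23.5%, 27.2% and 28% lower. In LPS-treated MK2/3-/- against wt, 9.63% of all genes were called higher and 14% lower. Of the 11 chemokines 1 was called there, the platelet factor gene Pf4 (-0.74, adjusted p 0.0447). The median of the 11 was -0.74, with 8 of 11 at a value below 0. The neutrophil attractants Cxcl1 (-0.98), Cxcl2 (-0.41) and Cxcl3 (-1.42) were not called there, and none of these chemokines had a positive value above 0.79.

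The genes around the chemokine cluster were read in the same comparisons. Of 9 tested named neighbours, 5 on the side of Cxcl9 and 4 on the side of Cxcl11, 5 were called higher and 1 lower with LPS in wt BMDM, with a median of 0.69, where 18.6% of all genes were called higher and 23.5% lower. Ppef2, a phosphatase gene 3 places beyond Cxcl9, ranged from 7.79 to 8.54 in LPS-treated wt BMDM and was well above background on 1 of 4 medium-treated wt arrays, so its rise is given without a size. After LPS, MK2/3-/- BMDM had less of it than wt BMDM (-1.80, adjusted p 0.0089), opposite to Cxcl9. Among the 9 neighbours Ppef2 alone was called in this comparison, where 9.63% of all genes were called higher and 14% lower. None of the medium-treated MK2/3-/- arrays had Ppef2 well above background. Art3, whose annotated start lies within the cluster, rose by 1.096 in wt and 1.11 in MK2/3-/- BMDM and was not called between genotypes after LPS (0.47 in MK2/3-/- against wt).

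**Figure D5:**
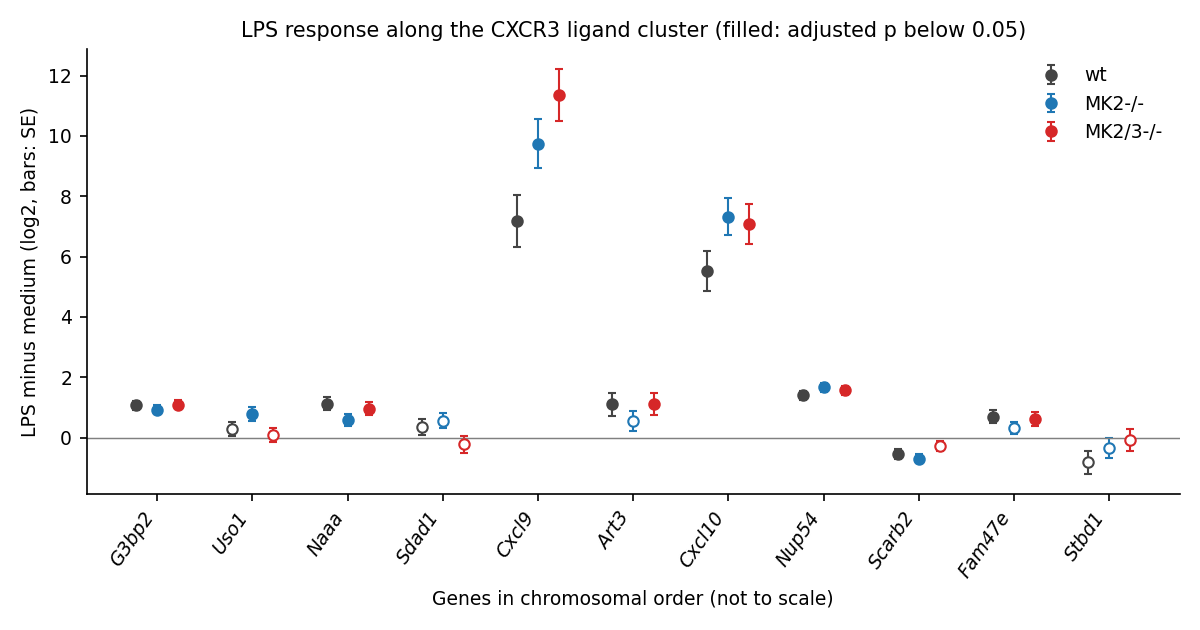
LPS minus medium on the log2 scale (vertical axis, bars are SE) in wt, MK2-/- and MK2/3-/- BMDM for Cxcl9 (leading probe), Cxcl10 and the tested named genes around them, in chromosomal order and not to scale. Filled points have an adjusted p below 0.05. Cxcl9 and Cxcl10 stand between 5.53 and 11.34, and the other genes shown at or below 1.66. Ppef2 is not shown because most of its medium arrays were not well above background.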

How the data were processed

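RNA was labelled with Cy3 and hybridised to 22 Agilent 1-colour mouse arrays of 62976 spots. The deposited files hold the processed intensity of each spot, background-subtracted by the authors with Feature Extraction 11.0.1.1 and not normalised between arrays. A second deposited file, used here as an alternative, holds log2 values by the authors, whose columns followed the quantile-normalised and centred log2 signal of their arrays (r 0.993 to 1.00, column medians -0.07 to 0.08). Control spots (3671) and outlier-marked spots were left out, and the log2 processed signal was quantile normalised over 22 arrays. Replicate 3 of LPS-treated MK2-/- BMDM had 2927 marked spots, and each other array 115 to 261. This array also had the highest median processed signal (108 units) and the largest share of spots well above background (83%). Median processed signals of 32.7 to 108 units per array and 61.7% to 83% of spots well above background, together with 3 or 4 arrays per group, limit the precision.

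Probes with a RefSeq or GenBank accession that reached the mark well above background on 3 or more arrays (28103) were fitted with limma 3.58.1 in R 4.3.3, with a mean for each of 6 groups. Benjamini-Hochberg adjustment ran over all 28103 probes, and calls are at an adjusted p below 0.05. Of 29150 RefSeq probes, 27509 got a gene symbol from the given RefSeq gene list (GRCm38.p6); the array design is on mm9, so probe coordinates are not given. A gene outside the members stands at its probe of highest mean signal.

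Members and lists were chosen with earlier results of these data known. Besides the members, Ifnb1, Irf1, Socs1 and Cxcr3 are always named, of each pathway list up to 3 called genes with the largest difference in LPS-treated MK2/3-/- against wt or in the interaction, and the 5 genes nearest to each member; other genes named were chosen after their values were seen. One further gene that this rule names is not reported here, and it is counted in its list but not drawn. The script was tested on simulated data: of 50 probes with a log2 change of 2 among 28103, 64% were called in MK2/3-/- against wt after LPS and 40% in the interaction. Alternatives were another scaling, normexp correction (offset 50, on the median rather than the mean spot signal, which the files lack), the authors' table, other filters and fits, the methods' t-test, replicate blocks and leaving out each array. Figures and permutation tests used Python 3.11.15 with numpy 2.4.6, pandas 2.3.3 and matplotlib 3.10.9.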

Additional observations from a re-analysis of the deposited data

Results flagged for a closer look

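On the leading Cxcl9 probe, replicate 2 of medium-treated MK2-/- BMDM (6.86 on the log2 scale) stood apart from the other 3 arrays of its group, and on the second probe replicate 4 of medium-treated wt BMDM (10.18) did so. These 2 were past the 95% critical value of Dixon's test among 12 groups of 4 arrays tested, and chance puts about 1 in 20 groups past it. The LPS response of Cxcl9 on the second probe differed between MK2/3-/- and wt BMDM by 3.79 in the interaction term.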

How the results depend on the processing

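The results of the 3 probes were recomputed under 11 alternatives, under 22 fits that leave out 1 array, and, chosen after seeing the data, without both MK2-/- replicate 3 arrays. With 1 probe per gene the second Cxcl9 probe has no value, the methods' t-test gives no interaction, and lists were recomputed only with 75th percentile scaling. The LPS responses of both Cxcl9 probes and of Cxcl10 were called in all of these that gave a value. In LPS-treated MK2/3-/- against wt BMDM, 2 of 3 probes instead of 1 were called with normexp correction and when only the compared groups were fitted, and 1 to 2 when leaving out single arrays. Against MK2-/- BMDM after LPS, 2 were called under both and by the methods' t-test, and 1 to 2 when leaving out single arrays. In medium-treated MK2-/- against wt BMDM, 1 was called with 75th percentile scaling, 3 with array weights and 0 to 1 when leaving out single arrays. In the interaction of MK2/3-/- against wt, 0 were called with 75th percentile scaling, with all non-control probes tested, when only the compared groups were fitted and without both MK2-/- replicate 3 arrays, 2 with array weights and 0 to 1 when leaving out single arrays. The second Cxcl9 probe then had 3.26 (adjusted p 0.232) with 75th percentile scaling. The cause was not tested.

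The replicate block changed no call of these probes. The second Cxcl9 probe had an interaction of 3.70 (limma adjusted p 0.0213) with the replicate number as block. It had 3.85 (0.0167) with the replicate letter under which the arrays were deposited. Of 10 LPS and medium pairs with the same number, 7 had deviations that correlated above 0.1 (r -0.075 to 0.37). So did 7 of 10 pairs with the same letter (r -0.075 to 0.42), and 5 of 30 pairs with other letters (r -0.33 to 0.27). Mouse age was the same in 8, 10 and 5 of these pairs. Arrays of the same number or letter may thus share an animal. The labels do not say so, and the limma fit of all arrays and the permutations used no pairing.

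Scaling to the 75th percentile moved the median of all probes by 0.28 to 0.33 in the LPS responses, by 0.17 in LPS-treated and by 0.11 in medium-treated MK2/3-/- against wt. With it, the genes called (with quantile normalisation in brackets) of the receptor list were 1 (0) and 2 (1) in the LPS responses of wt and MK2-/- and 1 (0) in MK2/3-/- against wt in medium. Of interferon signalling they were 1 (2) in MK2-/- and 5 (2) in MK2/3-/- against wt after LPS, 3 of them lower (0), and 0 (1) in MK2-/- against wt in medium. Of NF-kB genes 1 (0) was called in MK2-/- against wt after LPS and 1 (0) in MK2/3-/- against MK2-/- in medium. Of other CXC chemokines 2 (1) were called in MK2/3-/- against wt after LPS and 2 (0) in medium, and 1 (0) interferon-stimulated gene in MK2-/- against wt in medium. Of the neighbours 2 (1) were called in MK2/3-/- against wt and 0 (2) against MK2-/- after LPS, and 1 (0) in each knockout against wt in medium, and Art3 was called in MK2-/- against wt in medium (1 instead of 0).

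The number of all probes called varied more: over the alternatives that tested the same 28103 probes it was 279 to 9703 in LPS-treated MK2/3-/- against wt (6658 by the limma fit of all arrays), 788 to 7538 in MK2-/- against wt (3252), 848 to 4586 between the knockouts (3758), and 34 to 1251 in the interaction of MK2/3-/- against wt (275), 0 to 117 in that of MK2-/- against wt (0) and 10 to 146 between the knockouts (19). In medium it was 634 to 5585 (2220), 240 to 4740 (540) and 406 to 2260 (753). The lowest counts after LPS and in medium were those of the methods' t-test.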
